A study of Mus musculus with 9 samples.

Results

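Cytochrome P450 enzymes outside the Cyp2g1 gene cluster, with the proteins that feed them electrons or process their products, were followed in the lateral nasal gland of the mouse. Members were chosen by gene symbol alone: every probe set with a single symbol beginning with Cyp and a digit, apart from Cyp2a, Cyp2b, Cyp2f, Cyp2g, Cyp2s and Cyp2t genes and Cyp51, and every probe set for Por, Cyb5a, Cyb5b, Cyb5r3, Ephx1, Ephx2 or an Fmo gene. This gave 82 probe sets for 63 genes, of 20380 single-symbol probe sets for 12393 genes on the array. Of the 63 genes, 54 encode P450s. Per the labels, the gland was taken from Cyp2g1-null males on a mixed 129/Sv and C57BL/6 background (3 arrays), from wild-type B6 males, labelled C57BL/6 (4 arrays), and from wild-type 129/Sv males (2 arrays). All mice were 2 to 3 months old, and the RNA on each array was a pool from 10 mice, so spread between arrays is spread between pools and hides that between animals. The labels name no littermate controls, so the lost gene and the mixed background cannot be told apart in a comparison with either strain, both strains or their mean. The sources used here do not say how the null allele was made.

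Microsomal P450s are haem enzymes that insert an oxygen atom into lipophilic substrates. They receive electrons from cytochrome P450 reductase, the product of Por, and in some reactions from cytochrome b5, which cytochrome b5 reductase can reduce. Epoxides formed by P450s are opened by epoxide hydrolases, and flavin monooxygenases oxidise nitrogen- and sulphur-containing compounds without haem. The nasal tissues are known for P450s that act on inhaled chemicals and odorants, and the lateral nasal gland is a large serous gland that empties into the front of the nose.

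Values are MAS5 signals on a linear scale, deposited after scaling of the arrays to a common level; array medians lay between 518.6 and 550.1. The signal of a probe set depends on how well its probes hybridise, so signals of different genes do not order their transcripts by amount. The targeted gene, Cyp2g1, had signals of 55.7 to 201.1 in null glands, 748.2 to 5916.8 in B6 and 207.5 to 981.2 in 129/Sv, so the null arrays were the lowest, with 1 of the 129/Sv arrays close above them. Of 6 serous gland markers, 5 lay above the array median on every array. The remaining marker, Car6, a secreted carbonic anhydrase, had 29312.4 to 70057.5 in null glands, 387.5, 593.7, 8017.5 and 7400.6 in B6 and 10385.4 and 66481.3 in 129/Sv, so B6 arrays 1 and 2 stood apart as the lowest. Summed signals of 5 olfactory neuron markers ran from 1709.4 to 5386.9 in null, 2277.9 to 8496.1 in B6 and 1207.3 to 2198.2 in 129/Sv glands. Those of 6 ciliated cell markers ran from 17910 to 18863.4 in null, 11018.1 to 13881.7 in B6 and 12518.5 to 14573.5 in 129/Sv glands, so the null glands stood above both strains. In a whole gland, a change in the number of cells of a type and a change in RNA per cell cannot be told apart. No probe set with Por as its single symbol was found in the annotation, so P450 reductase was not analysed here.

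The gland showed signal above the array median for the electron donors and for a few P450s, and most members lay below it. On all 9 arrays, 11 of 63 genes (17.5%) had a probe set above the median, against 47.2% of all single-symbol genes. These were Cyb5a, Cyb5b, Cyb5r3, Ephx1, Cyp4b1, Cyp27a1, Fmo1, Fmo2, Cyp1b1, Cyp4a12a and Cyp39a1. A further 7 genes exceeded the median on 2 to 8 arrays: Cyp2j6 and Ephx2 on 8, Cyp4f13 and Cyp2c38 on 4, and Cyp46a1, Cyp4v3 and Cyp2c54 on 2. Another 3, Cyp1a2, Cyp2c37 and Cyp2d34, exceeded it on 1 array. The other 42 genes (66.7%, against 36% of all genes) were below the median on every array. Above the median on all arrays were 3 of 3 electron donors, 1 of 2 epoxide hydrolases and 2 of 4 flavin monooxygenases, but 1 of 31 P450s of the xenobiotic families 1 to 3.

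**Figure D1:**
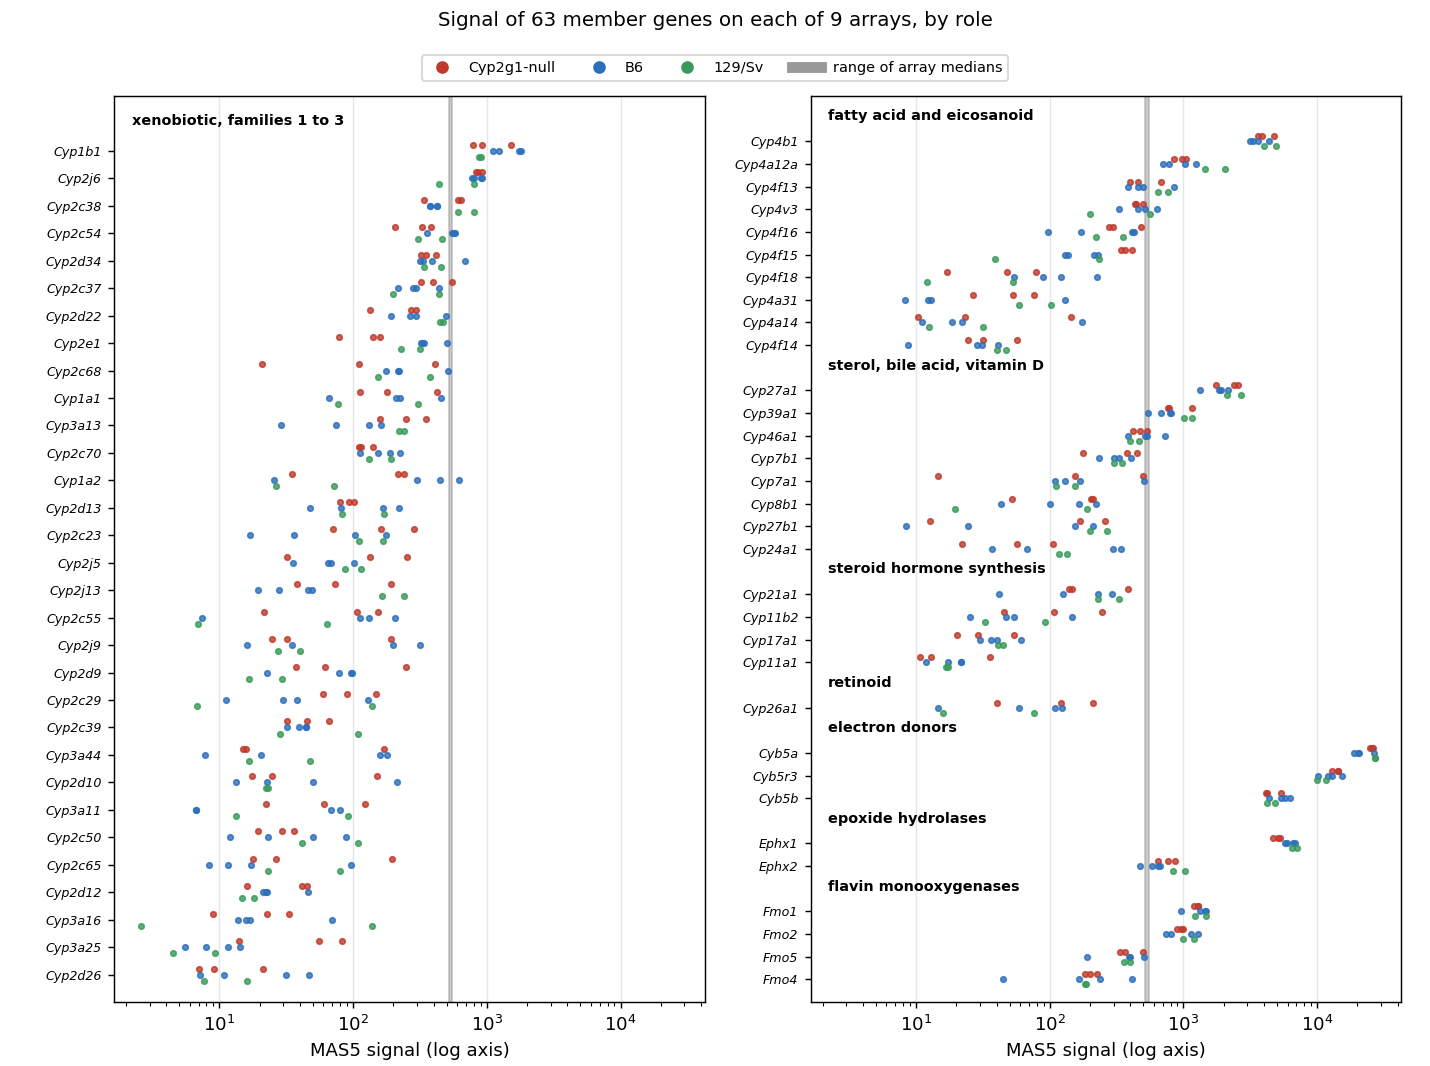
Signal of each of the 63 genes on the 9 arrays (points, log axis), with 1 probe set per gene, the one with the highest mean, and genes grouped by role; red points are Cyp2g1-null, blue B6 and green 129/Sv, and the grey band spans the array medians. Electron donors and Ephx1 lie right of the band, whereas nearly all P450s of families 1 to 3 lie left of it, where points of the same gene scatter widely.

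No member gene passed the test for a difference between null glands and either strain. A test was made for the 18 genes that exceeded the array median on at least 2 arrays. Of these, 0 passed against B6 (adjusted p under 0.05 in limma), where 2.84% of all 7487 tested genes passed. Likewise 0 passed against 129/Sv (2.2% of all genes), 0 against the mean of both strains (1.28%) and 0 against both strains at once (0.2%). At an unadjusted p under 0.05 there were 3 of 18 members against B6 (15% of all genes), 4 of 18 against 129/Sv (12.1% of all genes) and 2 of 18 against the mean (12.4% of all genes). Cyp2c54, 1 of the 3 against B6, and Cyp46a1 passed the filter through B6 arrays alone. The filter thus helped to set their differences from B6, and no count over the 18 stands for all members. The median log2 fold change of the members was 0.00 against B6, -0.13 against 129/Sv and -0.03 against the mean, beside medians over all genes of 0.02, 0.01 and 0.02. The comparisons share the null arrays.

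A difference that missed the threshold is not shown to be absent. Against B6, the 95% interval lay within a 2-fold change in either direction for 17 of 18 members, the exception being Cyp2c54. Against 129/Sv, with its 2 arrays, this held for 12 of 18. Between the strains, Cyp4a12a was the 1 member that passed, lower in B6. Of all genes, 5.44% passed there and 2.52% passed as lower in B6, beside 1 of 18 members (5.56%).

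**Figure D2:**
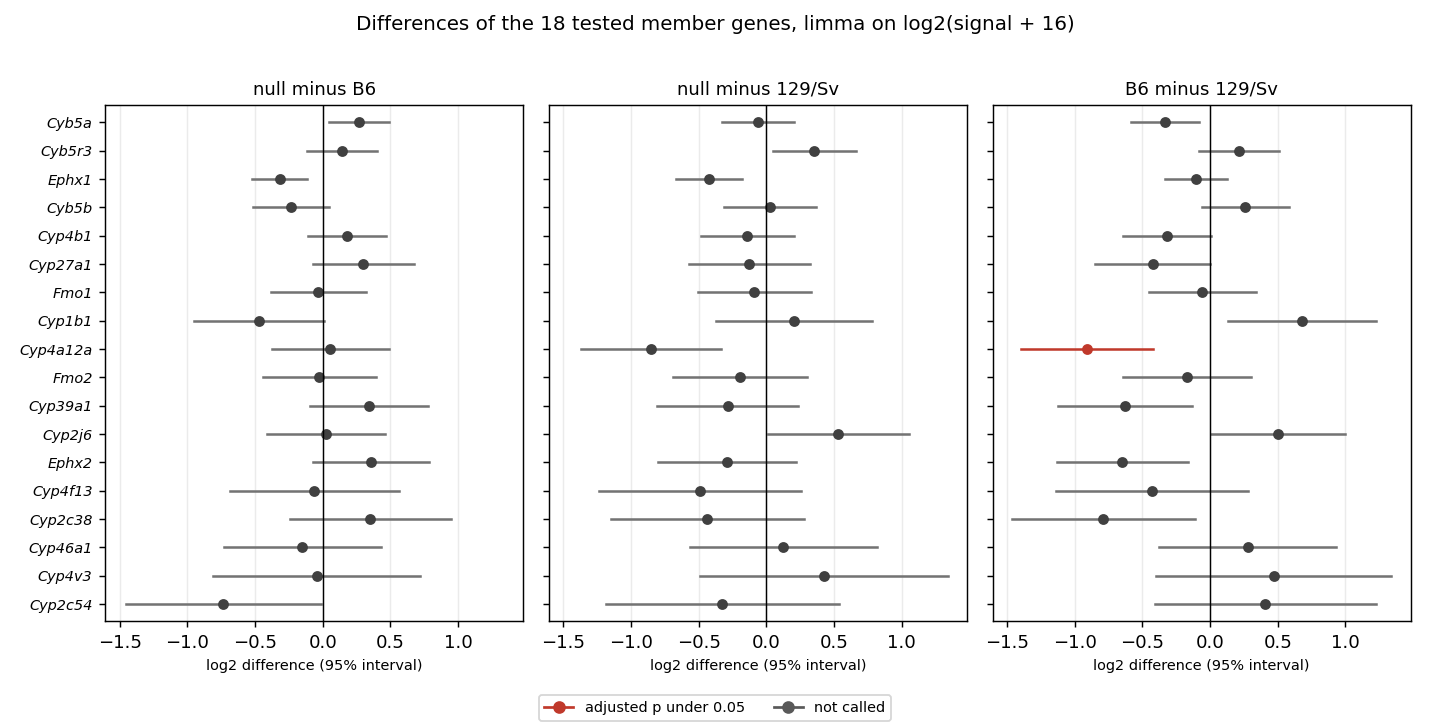
Log2 difference (points) and 95% interval (lines) of the 18 tested genes for null minus B6, null minus 129/Sv and B6 minus 129/Sv, from limma on log2(signal + 16). Cyp4a12a in B6 minus 129/Sv, at -0.91, is the 1 value called (red); the intervals of the members with low signals, at the bottom, are mostly wider than those at the top.

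Cyb5a, cytochrome b5 of the endoplasmic reticulum, had signals of 26271.7, 24955.5 and 25892.4 in null glands, against 26484.8, 18976.2, 20044.3 and 20525.6 in B6 and 26839.5 and 26865.7 in 129/Sv. B6 arrays 2, 3 and 4 were the lowest of all, whereas B6 array 1 lay with the null and 129/Sv arrays. The log2 fold change of null over B6 was 0.27 (SE 0.103, limma adjusted p = 0.22). Without B6 array 1 it was 0.37 and passed (adjusted p = 0.0111), in a fit where 6.35% of all genes passed. It also passed without B6 arrays 1 and 2 (adjusted p = 0.0303), where 5.4% of all genes did. Null over 129/Sv stood at -0.06 on this scale (SE 0.124, adjusted p = 0.899). For Cyb5a, B6 over 129/Sv was -0.33 (adjusted p = 0.139), and it passed without B6 array 1 at -0.44 (adjusted p = 0.00592).

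Cyb5r3, the NADH-dependent reductase of cytochrome b5, had 3 probe sets above the median on all arrays and 1 more below it. The brightest gave 14334.4, 14325.7 and 12863.4 in null glands, against 15296.4, 12147.6, 13004.5 and 10190.2 in B6 and 11691.4 and 9983.0 in 129/Sv. Null and B6 ranges overlapped, and both null and B6 means stood above the 129/Sv mean. Null over 129/Sv came to 0.36 on the log2 scale (SE 0.144, adjusted p = 0.314). The other bright probe sets gave 0.38 and 0.49, the larger with an adjusted p of 0.0659 among probe sets taken one by one, so the direction was shared by all 3 while none passed.

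Cyb5b, the cytochrome b5 of the outer mitochondrial membrane, had signals of 4233.5, 5398.8 and 4160.2 in null glands, against 5727.2, 6266.2, 5320.2 and 4359.8 in B6 and 4807.3 and 4181.4 in 129/Sv. The 3 groups overlapped. Its 3 probe sets gave log2 fold changes of null over B6 of -0.23, -0.05 and -0.24. None passed among probe sets taken one by one (lowest limma adjusted p = 0.452). In the main fit the brightest had an adjusted p of 0.429.

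Ephx1, the microsomal epoxide hydrolase that opens P450-made epoxides of foreign compounds, was the member with the lowest adjusted p in each comparison with the null glands. Its signals were 5122.8, 4709.4 and 5284.2 in null glands, against 6594.1, 5750.1, 5997.2 and 6848.0 in B6 and 6492.0 and 7022.8 in 129/Sv. All 3 null arrays were thus under the lowest of the 6 wild-type arrays. The null mean was 5039 ± 296 (SD, n = 3). It compared with 6297 ± 510.2 in B6 (SD, n = 4), and with 6757 ± 375 in 129/Sv glands (SD, n = 2). On the log2 scale null minus B6 was -0.32 (SE 0.0944, limma adjusted p = 0.0965), and null minus 129/Sv was -0.42 (SE 0.113, adjusted p = 0.0795). Against the 2 strains averaged, Ephx1 was at -0.37 (95% interval -0.56 to -0.18, adjusted p = 0.0612), so the gap did not pass. Against the mean it passed under 5 of 25 alternative settings and never changed sign. Summed ciliated cell markers were higher in null glands, as given above, and their part in the Ephx1 values was not tested. Ephx2, the soluble epoxide hydrolase that acts on fatty acid epoxides, had signals of 648.7, 765.1 and 866.4 in null glands, against 643.6, 579.1, 474.0 and 665.2 in B6 and 835.4 and 1029.0 in 129/Sv. All B6 arrays were below both 129/Sv arrays, and the null range overlapped both. Of null over B6 the log2 fold change was 0.36 (adjusted p = 0.422), and of null over 129/Sv -0.29 (adjusted p = 0.706).

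Across all member probe sets, 2 of 82 (2.44%) had all null arrays below all wild-type arrays, where 1.61% of all single-symbol probe sets did, and 2 of 82 had them above, where 2.22% did. The members' shares were thus near those of the whole array. The lower pair were Ephx1 and Cyp2e1, and the upper pair Cyp4f15 and 1 Cyb5r3 probe set, with 3538.2, 3362.6 and 3446.3 in null glands against 2868.5 to 3268.1 in B6 and 2255.6 and 2678.8 in 129/Sv. All of these were named after their values were seen. Cyp2e1, the ethanol-oxidising P450, had signals of 158.7, 78.9 and 141.9 in null glands, against 505.6, 323.4, 338.2 and 329.5 in B6 and 226.1 and 313.7 in 129/Sv. Cyp4f15, a fatty acid hydroxylase, had 410.1, 341.2 and 367.0 in null glands, against 129.7, 137.4, 229.7 and 214.2 in B6 and 232.2 and 38.8 in 129/Sv. Both genes were below the median on every array, so they were outside the main test. With no filter and probe sets taken one by one, null over B6 was -1.48 for Cyp2e1 (SE 0.409, adjusted p = 0.135) and 1.04 for Cyp4f15 (SE 0.526, adjusted p = 0.517), and of all 82 member probe sets 0 passed in any comparison. Of all 22626 probe sets, 1.03% passed there against B6, 0.941% against 129/Sv, 0.473% against the strain mean and 2.58% between the strains.

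**Figure D3:**
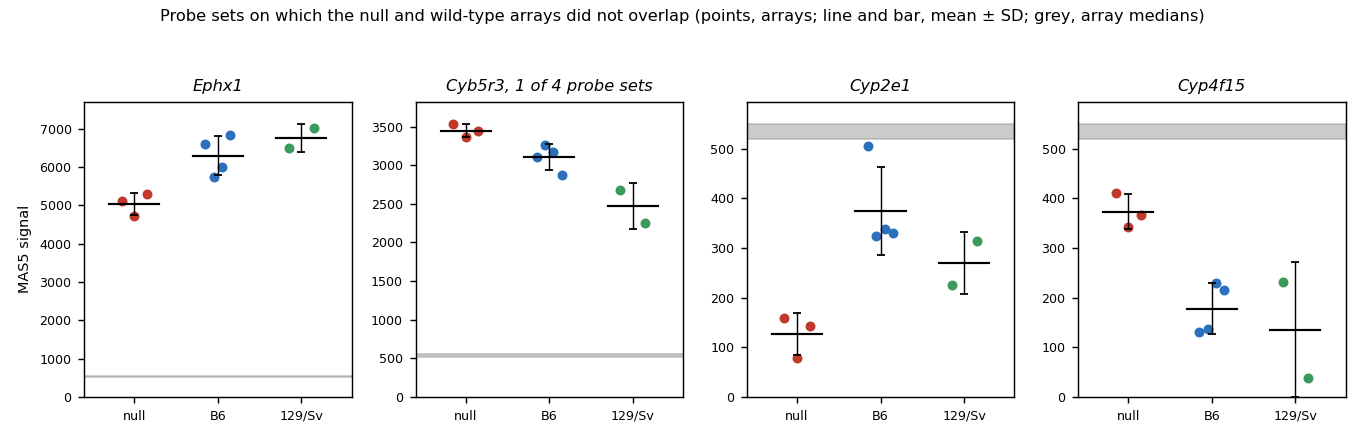
Signal per array (points) with the mean and SD (line and bar) for the 4 probe sets whose null arrays all lay on 1 side of all wild-type arrays, with the array medians in grey. Ephx1 and the Cyb5r3 probe set are far above the grey band with small gaps between the groups, and Cyp2e1 and Cyp4f15 lie under it; the SD bar of Cyp4f15 in 129/Sv is cut off at 0.

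The windows around the transcription start of the genes with such gaps, from 250 bases before it to 50 after, are given from RefSeq (build GRCm38.p6) to show what lies upstream of them. The table held no such window for Cyb5r3. Capitals mark matches on either strand to TATAAA, the letters of a TATA box, and a match alone does not show that a TATA box is in use. GCGTG, the core bound by the aryl hydrocarbon receptor, and TGACNNNGC, the core of the antioxidant response element, were also searched on both strands and matched none of the 3.
Ephx1 (GRCm38.p6, chr1:181017520-181017819, minus strand): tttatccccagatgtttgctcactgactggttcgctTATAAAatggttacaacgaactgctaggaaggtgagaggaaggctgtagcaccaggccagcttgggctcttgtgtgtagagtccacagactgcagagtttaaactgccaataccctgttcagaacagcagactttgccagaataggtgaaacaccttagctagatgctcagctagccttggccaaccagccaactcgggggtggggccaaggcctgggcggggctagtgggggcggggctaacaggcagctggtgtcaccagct
Cyp2e1 (GRCm38.p6, chr7:140763569-140763868, plus strand): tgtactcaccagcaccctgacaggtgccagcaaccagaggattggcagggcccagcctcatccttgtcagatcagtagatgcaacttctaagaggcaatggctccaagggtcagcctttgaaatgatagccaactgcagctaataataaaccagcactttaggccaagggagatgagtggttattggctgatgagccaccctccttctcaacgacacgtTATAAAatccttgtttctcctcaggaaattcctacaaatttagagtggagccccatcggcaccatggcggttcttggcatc
Cyp4f15 (GRCm38.p6, chr17:32685409-32685708, plus strand): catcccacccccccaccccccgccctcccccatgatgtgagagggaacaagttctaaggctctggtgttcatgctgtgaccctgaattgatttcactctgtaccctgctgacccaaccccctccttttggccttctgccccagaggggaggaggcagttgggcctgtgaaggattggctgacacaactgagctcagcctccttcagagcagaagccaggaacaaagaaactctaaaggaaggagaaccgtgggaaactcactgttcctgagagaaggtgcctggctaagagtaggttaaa
The match in Cyp2e1 begins 31 bases before the start and that in Ephx1 214 bases before it, while Cyp4f15 holds none. Over all 32851 promoter windows of this length, 13.6% held TATAAA, 32.4% GCGTG and 12.4% TGACNNNGC.

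Of the P450s of families 1 to 3, which include most drug-metabolising enzymes, Cyp1b1 had signal above the median on all arrays. This enzyme, which oxidises oestrogens and polycyclic hydrocarbons, had signals of 1504.7, 919.9 and 786.5 in null glands, against 1794.9, 1106.8, 1228.1 and 1729.9 in B6 and 872.4 and 907.6 in 129/Sv. All B6 arrays lay above both 129/Sv arrays, and the null range overlapped both. None of its comparisons passed, with B6 over 129/Sv at 0.68 on the log2 scale (SE 0.254, adjusted p = 0.167). Summed signals of 5 fibroblast markers were likewise highest in B6, at 43033.9 to 49455 in null, 49892.2 to 61693.6 in B6 and 43718 to 44188.7 in 129/Sv glands. Of the 5, Pdgfra alone was not highest in B6, with means of 1625 in null, 1611 in B6 and 1728 in 129/Sv glands. Among null arrays, array 3 had the highest fibroblast sum but the lowest Cyp1b1 signal. Olfactory, endothelial, macrophage and adipocyte marker sums also peaked in B6, whereas ciliated and serous sums peaked in null glands. Car6 was the only serous marker with its highest mean in null glands, at 54599 against 4100 in B6 and 38433 in 129/Sv. Aqp5, Bhlha15 and Obp1a had their highest mean in B6, and Ltf and Slc12a2 in 129/Sv. The part of these cells in the Cyp1b1 values was not tested. The 2 other Cyp1b1 probe sets were below the median throughout.

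Cyp2j6, a relative of the arachidonic acid epoxygenases, had signals of 851.6, 828.9 and 923.1 in null glands, against 776.1, 902.4, 807.9 and 924.4 in B6 and 441.9 and 798.9 in 129/Sv. The null and B6 ranges overlapped, both 129/Sv arrays lay below the null arrays, and 129/Sv array 1 was the lowest of all. Cyp2c38 had 338.3, 644.8 and 606.8 in null glands, against 372.9 to 420.7 in B6 and 605.6 and 801.3 in 129/Sv. It passed the filter on null and 129/Sv arrays alone. Cyp2c54 had 206.9, 380.9 and 329.9 in null glands, against 357.3 to 573.1 in B6 and 305.5 and 462.2 in 129/Sv, and exceeded the median on 2 B6 arrays alone. Having passed the filter through B6 alone, Cyp2c54 counts among the tested genes, but its difference from B6 is not read as a result. Cyp2c genes lie in a cluster of close relatives, and cross-hybridisation between them cannot be told apart from their own signal.

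The remaining P450s of these families had low signal. Below the median on every array were 8 of 11 Cyp2c, 6 of 7 Cyp2d, 3 of 4 Cyp2j and 5 of 5 Cyp3a genes. Cyp3a11, a main drug-metabolising P450 of mouse liver, had signals between 6.7 and 123.1. Over the 51 probe sets of the 42 genes below the median throughout, signals ran from 2.6 to 512.6 with a median of 79.3. Over all 56 member probe sets below the median on every array, the highest array exceeded the lowest by a median of 10.2-fold. That median was 1.6-fold for member probe sets above the median on all arrays. Without detection calls, whether the transcripts of the 42 genes were present at all was not determined.

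Cyp1a2, a P450 that activates arylamines and is known from the olfactory mucosa, is taken up here after its values were seen. Its signals were 34.9, 239.2 and 217.7 in null glands, against 614.9, 25.4, 299.3 and 445.2 in B6 and 26.6 and 72.3 in 129/Sv. It exceeded the median on B6 array 1 alone. That array also had the highest summed olfactory marker signal, 8496.1, and B6 array 4 was second in both, at 445.2 and 5880.3. Null array 2 did not follow, with a Cyp1a2 signal of 239.2 and an olfactory sum of 1709.4, the second-lowest. Nor did B6 array 2, which had the lowest Cyp1a2 signal, 25.4, at an olfactory sum of 2277.9, ranked 5 from the top. The part of olfactory tissue in these signals was not tested.

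**Figure D4:**
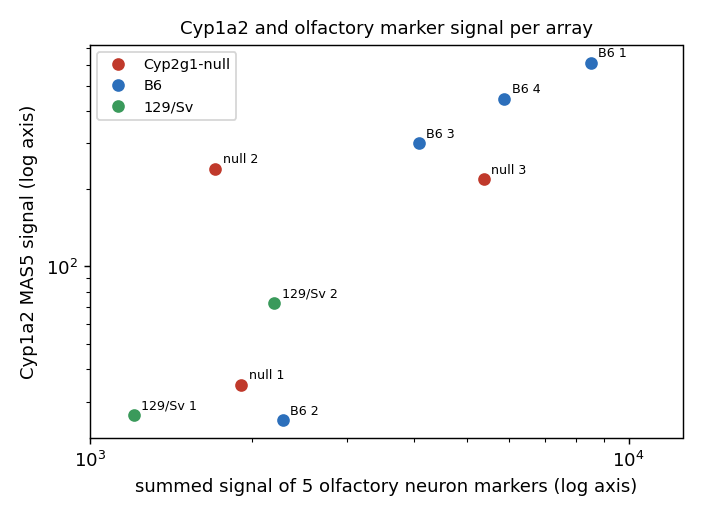
Cyp1a2 signal against the summed signal of 5 olfactory neuron markers on each of the 9 arrays (both axes log; red null, blue B6, green 129/Sv). B6 arrays 1 and 4 are highest on both axes, and null array 2 has a Cyp1a2 signal of 239.2 at an olfactory sum of 1709.4. B6 array 2 has the lowest Cyp1a2 signal, 25.4, at an olfactory sum of 2277.9.

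Among P450s that hydroxylate fatty acids and eicosanoids, 2 of 10 genes were above the median on all arrays. Cyp4b1, known in rodent lung for activating 4-ipomeanol, had signals of 3625.2, 3888.8 and 4725.2 in null glands, against 3149.0, 3314.9, 4339.0 and 3612.1 in B6 and 4022.7 and 4962.6 in 129/Sv. The 3 groups overlapped, and null over the mean of both strains was 0.02 on the log2 scale (SE 0.126, adjusted p = 0.969). Cyp4a12a, an arachidonic acid hydroxylase that is male-predominant in mouse kidney and liver, differed between the strains. Its signals were 977.7, 843.8 and 1039.5 in null glands, against 1018.8, 708.2, 778.6 and 1238.1 in B6 and 1458.0 and 2047.8 in 129/Sv. Both 129/Sv arrays lay above all other arrays, and the null and B6 ranges overlapped. Cyp4a12a was lower in B6, with 935.9 ± 241 (SD, n = 4) against 1753 ± 417 (SD, n = 2) in 129/Sv (log2 fold change -0.91, SE 0.228, limma adjusted p = 0.03). The call was lost when 129/Sv array 1 was left out (adjusted p = 0.0557), and likewise for 129/Sv array 2 (0.349), B6 array 2 (0.0666) and B6 array 3 (0.0716). Null over 129/Sv was of similar size and did not pass (log2 fold change -0.85, SE 0.24, adjusted p = 0.103), and null over B6 was 0.06 (95% interval -0.38 to 0.49). The probe set may also detect the near-identical Cyp4a12b.

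Cyp4f13 and Cyp4v3, further members of this family, gave no call. Cyp4f13 had signals of 399.8, 673.6 and 459.3 in null glands, against 386.0 to 848.0 in B6 and 648.8 and 770.9 in 129/Sv. Cyp4v3, a fatty acid hydroxylase, had 440.6, 436.8 and 495.4 in null glands, against 331.1 to 633.8 in B6 and 198.2 and 562.7 in 129/Sv. Groups overlapped for both. The other 6 genes, 3 of them Cyp4f genes beside Cyp4f15, were below the median on every array.

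Of 8 P450s of sterol, bile acid and vitamin D metabolism, Cyp27a1 and Cyp39a1 were above the median on all arrays. Cyp27a1, the mitochondrial sterol 27-hydroxylase, had signals of 2377.6, 2536.8 and 1750.3 in null glands, against 2150.8, 1841.3, 1914.2 and 1321.0 in B6 and 2689.9 and 2131.0 in 129/Sv. The 3 ranges overlapped. Cyp39a1, an oxysterol 7-alpha-hydroxylase, had 782.9, 1159.4 and 771.0 in null glands, against 677.3, 540.2, 796.4 and 802.9 in B6 and 1012.0 and 1163.4 in 129/Sv. Both 129/Sv arrays exceeded all B6 arrays for Cyp39a1 (log2 fold change of B6 over 129/Sv -0.63, SE 0.23, adjusted p = 0.156), and no comparison of either gene passed. Cyp46a1, the cholesterol 24-hydroxylase of brain, had 471.7, 529.1 and 420.0 in null glands, against 384.9 to 723.4 in B6 and 464.3 and 399.3 in 129/Sv, near the array medians. It exceeded the median on 2 B6 arrays alone, so the filter helped to set its differences from B6. The other 5 genes, with Cyp7a1, the rate-limiting enzyme of bile acid synthesis, among them, were below the median on every array, as were all 4 P450s of steroid hormone synthesis and the retinoic acid hydroxylase Cyp26a1. Cyp17a1, the steroid 17-alpha-hydroxylase, had signals between 20.3 and 60.7.

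Of the flavin monooxygenases, Fmo1 and Fmo2 were above the median on all arrays and Fmo4 and Fmo5 below it. Fmo1 had signals of 1289.1, 1200.7 and 1280.5 in null glands, against 1339.6, 952.2, 1480.2 and 1442.9 in B6 and 1211.3 and 1476.9 in 129/Sv. Fmo2, the lung form, had 1000.0, 956.9 and 893.4 in null glands, against 808.5, 744.0, 1273.2 and 1132.7 in B6 and 1188.9 and 995.7 in 129/Sv. The groups overlapped for both genes. Null over the mean of both strains was -0.06 for Fmo1 (SE 0.154, adjusted p = 0.92) and -0.11 for Fmo2 (SE 0.183, adjusted p = 0.864). Fmo5 had means of 401 in null, 372 in B6 and 378 in 129/Sv glands, and Fmo4 had means of 203 in null, 214 in B6 and 185 in 129/Sv glands.

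**Figure D5:**
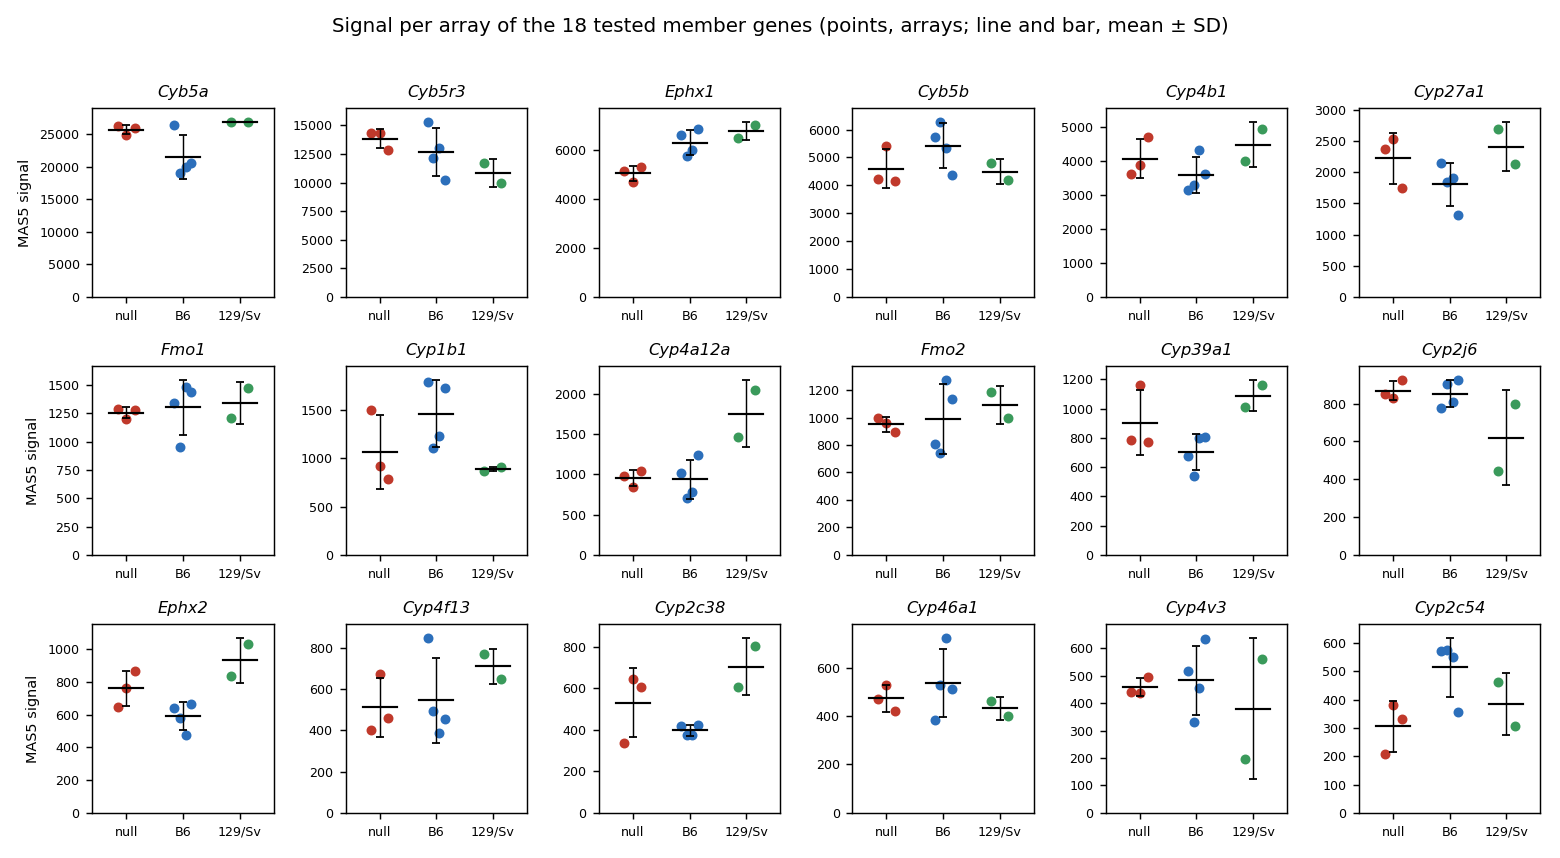
Signal per array (points) with the mean and SD (line and bar) of the 18 tested genes, ordered by mean log2 signal, in null, B6 and 129/Sv glands; each panel starts at 0. Null points overlap those of at least 1 strain in every panel except that of Ephx1, where all 3 lie below all wild-type points.

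The null mean lay between the strain means for 11 of the 18 tested genes, above both for 2 and below both for 5. Over all 7487 tested genes these shares were 38.4% between, 33.6% above both and 28.1% below both. No test of this difference was made. Cyp2c54 and Cyp46a1, kept through B6 arrays alone, are counted among the 18. So are Cyp4v3, kept through 1 B6 and 1 129/Sv array, and Cyp2c38, kept through null and 129/Sv arrays. Unadjusted p-values of B6 against 129/Sv were under 0.05 for 7 of the 18 genes, where 18% of all genes were: Cyb5a, Cyp1b1, Cyp2c38, Cyp2j6, Cyp39a1, Cyp4a12a and Ephx2. Cyp2c38 had no B6 array above the median and passed the filter through the other groups, so its difference is partly set by the filter. Of the other 6, Cyp1b1 and Cyp2j6 were higher in B6.

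Genes that serve P450s without being members were read from a list of haem enzymes, xenobiotic sensors and other electron carriers, of which 26 of 30 had a probe set and 20 were tested. Against B6 0 of 20 passed, where 2.84% of all genes did. Against 129/Sv 1 of 20 passed, where 2.2% of all genes did. This was Alad, the second enzyme of haem synthesis, which was lower in null glands. Its signals were 1769.9, 1700.9 and 1673.2 in null glands, against 4441.8 and 4607.0 in 129/Sv (log2 fold change -1.39, SE 0.17, limma adjusted p = 0.000446). B6 glands had 1219.1 to 1917.9, so the null range lay within that of B6, and Alad also passed as lower in B6 than in 129/Sv (log2 fold change -1.48, adjusted p = 6.57e-05). Alad was also the 1 listed gene that passed for null glands against the strain mean (log2 fold change -0.65, adjusted p = 0.0319), where 1.28% of all genes did. Between the strains 2 of 20 passed, Alad and Blvrb, where 5.44% of all genes did. Blvrb, a biliverdin reductase, was lower in B6, at 526.4 to 875.4 against 1515.4 and 1252.4 in 129/Sv (log2 fold change -0.96, adjusted p = 0.0217), with 1119.5, 1308.7 and 891.1 in null glands. Alas1, the rate-limiting enzyme of haem synthesis, had 4083.3, 3582.2 and 3574.0 in null glands, against 4006.6 to 5714.3 in B6 and 4767.4 and 5045.6 in 129/Sv, and did not pass. Ahr, the aryl hydrocarbon receptor, Nfe2l2 and Rxra were above the median on all arrays. The nuclear receptors Nr1i2 and Nr1i3, which induce hepatic P450s, were below it on all arrays.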

How the data were processed

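RNA from the lateral nasal gland was measured on 9 single-colour arrays, biotin-labelled per the labels' protocols. The deposited values are linear signal intensities. MAS5 is the tool named in the submitters' processing notes, and the sources used here do not state a version. All arrays had a 2% trimmed mean of 1500.6, so the authors' scaling was kept. Of 22690 probe sets, 64 controls were left out; of the rest, 20380 had 1 gene symbol, 691 several and 1555 none, and 3 P450 probe sets with several symbols were left out of the members. RefSeq IDs were found for 20351 and changed 0 symbols.

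Signals became log2(signal + 16), which understates changes of low signals. Probe sets above their array's median on at least 2 arrays were kept, with the highest-mean probe set for each gene (7487 genes). The 3 group means were estimated in R 4.3.3 by limma 3.58.1 (lmFit, eBayes with trend), with Benjamini-Hochberg adjustment over all genes, two-sided, at 0.05. The fit was tested on simulated data. Members, lists and tests were chosen with earlier results of these data known. Named were called members, all members above the median on every array, the partner enzymes and called list genes. The number of arrays limits the precision, and no batch is given in the labels. No pairing by replicate number was seen: deviations of same-numbered arrays from their group means correlated at -0.087 to 0.104. The deviations of the 2 arrays of 129/Sv mirror each other by construction, so the check is limited. Alternatives changed the normalization, pseudocount, filter, probe set rule, eBayes, weights, block, covariate, threshold and arrays.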

Additional observations from a re-analysis of the deposited data

Results flagged for a closer look

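The 4 B6 arrays were examined for 20 probe sets, those of the tested members with Cyp2e1 and Cyp4f15, which were added after their values were seen. Of these, 2 had an array far from the other 3 by Dixon's criterion, which chance meets in about 1 in 20 groups. Cyp2c54 was low on B6 array 4, at 357.3 against 548.8 to 573.1 on the others. Cyp2e1 was high on B6 array 1, at 505.6 against 323.4 to 338.2. That array also had the highest olfactory marker sum, 8496.1. B6 array 4, second in that sum at 5880.3, had a Cyp2e1 signal of 329.5. Null array 3, the next at 5386.9, had 141.9. The part of olfactory tissue in the Cyp2e1 values was not tested.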

How the results depend on the processing

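Against B6, 0 members passed under all alternatives except those without B6 array 1 (1 gene, Cyb5a, where 6.35% of all genes passed) and without B6 arrays 1 and 2 (1 gene, Cyb5a, where 5.4% did); leaving out single arrays gave 0 to 1. Against 129/Sv, where 0 passed, 1 passed with equal array medians, with array weights, with only the groups compared and without B6 arrays 1 and 2. With the mean log2 signal of the olfactory markers as a covariate, 2 passed. Leaving out single null or B6 arrays gave 0. Of all genes, 1.94% to 3.45% passed under these 5 settings. Those members were Ephx1 (adjusted p = 0.0453, 0.042, 0.0441 and 0.0399 with equal medians, weights, both B6 arrays out and the covariate) and Cyp4a12a (0.0303 with only the groups compared and 0.0252 with the covariate). Against the mean of both strains, where 0 passed, Ephx1 was the 1 gene that passed with equal array medians (adjusted p = 0.0437), a filter at the 75th percentile (0.0428), array weights (0.0294) and without B6 arrays 1 and 2 (0.0294); leaving out single arrays gave 0 to 1, with Ephx1 passing without B6 array 1 (0.0464). Of all genes, 1.27% to 3.45% passed under these settings. Against both strains at once 0 passed under every alternative run. For B6 against 129/Sv, where 1 passed, 0 passed with no filter, with a filter at the 75th percentile (which left Cyp4a12a untested), without the eBayes trend, with only the groups compared and at an adjusted p of 0.01. Array weights gave 2, adding Cyb5a (6.09% of all genes passed), and leaving out single arrays gave 0 to 2. Without B6 arrays 1 and 2 the count was still 1, but the gene was Cyb5a and not Cyp4a12a. Of the 63 genes, 11 exceeded the median on all arrays, 5 exceeded the 75th percentile on all arrays, and 18 exceeded the median on at least 2 arrays. With the replicate number as a block, 0 passed in each comparison with null glands and 1 between the strains (Cyp4a12a, log2 fold change -1.06, adjusted p = 0.0314), and no call changed. The causes were not tested. The 16 gene results followed kept their direction in each of the 21 to 25 alternatives that could be run for them. The 2 arrays of 129/Sv and the wide spread of low signals between arrays limit the size of difference that could be resolved.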

Other observations

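Of the 63 member genes, 43 had at least 1 promoter window in the RefSeq table (build GRCm38.p6, 250 bases before to 50 after the start). Windows of members that were not tested because of their low signal held TATAAA in 18 of 39 cases (46.2%), those of tested members in 2 of 12 (16.7%), and all windows in 13.6%. GCGTG was found in 7 of 39 (17.9%) and 3 of 12 (25%), and in 32.4% of all windows. Genes of the Cyp2c, Cyp2d and Cyp3a families are close relatives, so their windows are not independent, and a match of letters is not a bound site.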
